A study of Mus musculus with 26 samples.

Results

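Lung of mice compound heterozygous for Fgfr3 and Fgfr4 (DHet) was compared with wild-type (WT) lung on the arrays whose titles give an age of 8 day. These are 6 of the 26 arrays of the study, 3 per genotype, chosen by genotype and age in the array titles. Of 45037 probe sets other than controls, the 27022 kept by a filter on mean level were tested in the main fit. Each array carried the lung RNA of 3 animals combined before hybridisation (9 animals per group), and arrays of a group therefore differ as pools do. The titles call the DHet arrays compound heterozygous and the characteristics call them double heterozygous. WT were age-matched C57BL6 mice per the growth protocol, while the sources used here give neither the strain background of the mutants nor the deleted parts of both genes. The title and source name of these arrays give 8 day but their characteristics give 1 day, so the set is named by its titles only. Double mutants (DKO) of the same set, 3 arrays, and the DHet and WT arrays of the set titled 1 day (3 each) and of the 28-day set (3 DHet and 2 WT) serve for comparison.

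FGFR3 and FGFR4 are receptor tyrosine kinases that bind fibroblast growth factors (FGFs) and signal mainly through the RAS-ERK and PI3K pathways. ERK signalling induces its own inhibitors, the Sprouty and Spred proteins and the phosphatase DUSP6. In mice the combined loss of both receptors is known for a failure to form alveoli after birth with excess elastin, while loss of either alone leaves the lung largely intact.

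Surfactant protein C (Sftpc) lay between 14.4 and 14.6 log2 on the 6 arrays, the club cell secretoglobin Scgb1a1 between 13.59 and 13.98, and the alveolar type 1 marker Ager between 12.8 and 13.2. Arrays correlated across probe sets with r from 0.993 to 0.996 within a genotype and from 0.993 to 0.996 between genotypes, and no array stood apart. The pools differed in their mix of sexes within both genotypes. The Y-linked gene Eif2s3y was 4.98, 6.31 and 4.14 log2 in WT and 3.39, 6.86 and 6.99 in DHet. The 3′ minus 5′ difference of the actin controls, a sign of RNA integrity, was 0.257 ± 0.115 log2 (SD, n = 3) in WT and 0.345 ± 0.0759 (SD, n = 3) in DHet. That of the Gapdh controls was -0.372 ± 0.112 in WT and -0.367 ± 0.0257 in DHet.

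The targeted receptors were examined first. Fgfr3 (probe set 1421841_at) was measured at 9.81, 9.96 and 9.74 log2 on the WT arrays and at 9.44 on each of the 3 DHet arrays. Every DHet array was below every WT array, and the 3 DKO arrays, at 8.97, 8.98 and 8.94, lay lower again. The difference between DHet and WT was -0.40 ± 0.131 log2 (SE), with an unadjusted p of 0.00605 (limma). It did not pass after adjustment over all kept probe sets (adjusted p = 0.421). The same probe set differed by -0.48 in the set titled 1 day (adjusted p = 0.0362) and by -0.49 in the 28-day set (adjusted p = 0.612). A second Fgfr3 probe set (1425796_a_at) had overlapping arrays and a difference of -0.24 ± 0.153 log2 (limma, adjusted p = 0.798).

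Fgfr4 (1418596_at) was at 7.94, 7.83 and 8.11 log2 in WT and at 7.73, 7.78 and 7.62 in DHet, again without overlap, with DKO at 7.07, 7.26 and 6.697. Its difference between DHet and WT was -0.25 ± 0.114 log2 and did not pass (limma, adjusted p = 0.643). The other 2 Fgfr4 probe sets differed by 0.04 and 0.02 log2. In the set titled 1 day Fgfr4 was 0.28 log2 above WT and in the 28-day set 0.07 above, neither past the threshold. Where the probes lie relative to the deleted parts is not given, and a probe outside a deletion checks nothing, so these levels do not test the genotype labels.

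**Figure D1:**
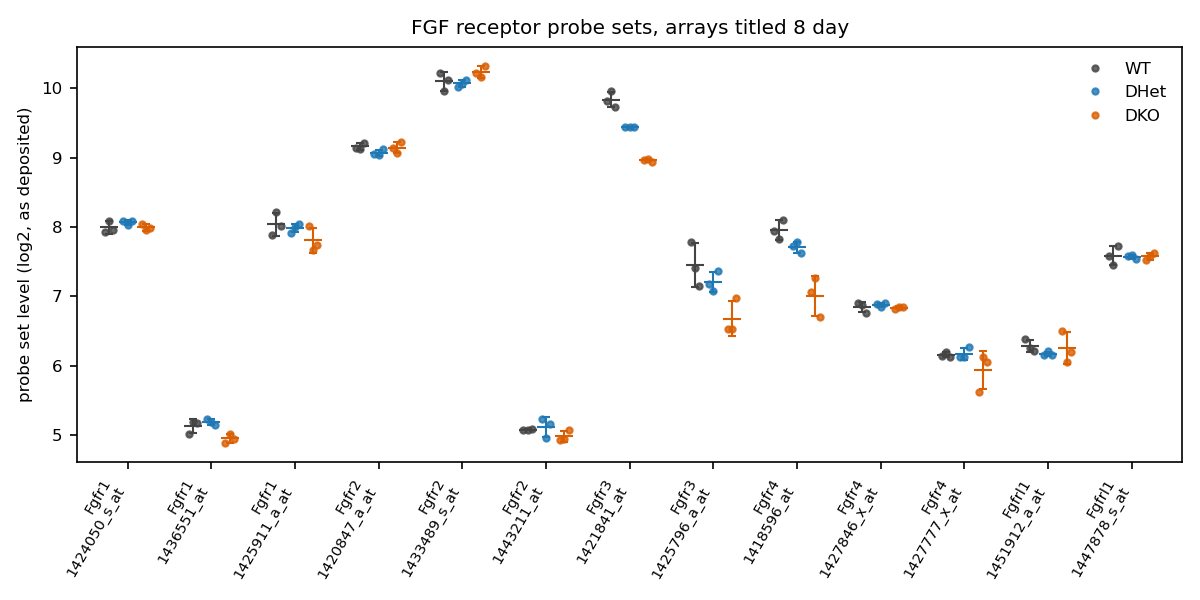
Levels of all kept FGF receptor probe sets (log2 as deposited) on each array titled 8 day, with points for arrays, dashes for group means and bars for SD (n = 3). Fgfr3 1421841_at and Fgfr4 1418596_at step down from WT to DHet to DKO, while the DHet means of the Fgfr1, Fgfr2 and Fgfrl1 probe sets lie within 0.12 log2 of the WT means.

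No gene of the FGF pathway passed the test. All 8 probe sets of Fgfr1, Fgfr2 and the decoy-like receptor Fgfrl1 differed by between -0.11 and 0.07 log2. Of 11 FGF family genes in the ligand list, 5 were measured above the level filter, and none had arrays that did not overlap. Fgf7, a growth factor made by mesenchyme, had the smallest p among them at -0.14 log2 (limma, adjusted p = 0.87). Of 14 receptors and co-receptors 11 were measured, and with each gene taken by its probe set of highest mean, as in all lists here, Fgfr3 and Fgfr4 were the 2 with arrays apart. By the probe set of smallest p, 3 were lower without overlap, and differences ranged from -0.84 to 0.25 log2, none called. Chosen that way, 885 of all 13079 genes were higher and 1424 lower without overlap. Among 13 measured feedback targets of FGF and ERK signalling 2 were higher and 1 lower without overlap, beside 4.74% and 7.65% of all genes, with a median of 0.05 log2. By the probe set of smallest p, 1 was higher and 2 were lower, beside the 885 and 1424 of all genes. By highest mean the lower one was Dusp6, at 9.97, 9.96 and 9.99 log2 in WT and 9.55, 9.52 and 9.43 in DHet (difference -0.47 ± 0.13, limma, adjusted p = 0.31). Dusp6 of DKO, at 9.79, 10.19 and 9.73, spanned the WT values. Etv4, an ETS transcription factor induced by ERK, was 0.17 log2 higher (adjusted p = 0.683), and the ERK inhibitors Spry4 and Spry1 differed by -0.27 and -0.09 log2 with overlapping arrays.

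Of all 27022 kept probe sets, 14 passed an adjusted p of 0.05, a share of 0.0518%, with 6 higher and 8 lower in DHet. All 14 had arrays that did not overlap, and 8 of them name 1 gene each, for 7 genes. A further 16 had an adjusted p between 0.05 and 0.10, and 7.49% of probe sets had an unadjusted p under 0.05. The median difference over all kept probe sets was -0.01 log2. By the same fit 3.95% of probe sets passed between DKO and WT of this set and 1.61% between DKO and DHet. Between DHet and WT 5.08% passed in the set titled 1 day and 0.0222% in the 28-day set. The count was 23 without WT replicate 2, with 12 higher and 11 lower, and lay between 11 and 18 without any other single array. In bulk tissue fewer cells of a type and less RNA per cell cannot be told apart, which holds for every difference below.

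The largest difference that passed was in Ctse, which encodes cathepsin E, an aspartic protease of the endosomes of epithelial and antigen-presenting cells. Probe set 1427797_s_at was at 7.58, 7.63 and 7.43 log2 in WT and at 5.75, 5.61 and 5.62 in DHet, which is 3.69-fold lower (log2 -1.89 ± 0.148 SE, limma, adjusted p = 3.42e-07). The DKO arrays, which are compared with the same WT arrays, were also low at 6.31, 6.20 and 5.68. The second Ctse probe set, 1418989_at, did not differ in the same way, with 6.52, 6.36 and 6.48 in WT, a DHet mean of 6.46 and a difference of 0.00 log2. Probe set 1427798_x_at, which carries no gene name in the annotation used, was at 5.72, 5.60 and 5.79 in WT and at 4.52, 4.52 and 3.98 in DHet (log2 -1.36 ± 0.198, adjusted p = 0.00228).

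Nnt, the transhydrogenase of the inner mitochondrial membrane that makes NADPH, fell by 1.25 on the log2 scale, a 2.38-fold difference (SE 0.15, limma, adjusted p = 0.000283). Its WT arrays were at 9.07, 9.14 and 9.11 and its DHet arrays at 7.98, 7.92 and 7.66. DKO lay between the other genotypes at 8.66, 8.65 and 8.92, and Nnt is the single called probe set that also passed between DKO and DHet (0.89 log2 higher in DKO, adjusted p = 0.00263). A second Nnt probe set, 1456573_x_at, was lower by 0.96 log2 and missed the threshold (adjusted p = 0.14). Some C57BL/6 substrains carry a deletion within Nnt. The labels do not name the substrain, and the part of strain in this difference was not tested.

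Cd59a, which encodes the membrane inhibitor of the complement attack complex, was called with both of its probe sets. Probe set 1429830_a_at was at 8.55, 8.46 and 8.59 log2 in WT and at 7.57, 7.57 and 7.48 in DHet, a 1.99-fold difference (log2 -0.99 ± 0.0993, limma, adjusted p = 1.72e-05). The second, 1418710_at, was at 8.79, 8.75 and 8.48 in WT and at 7.92, 8.06 and 7.86 in DHet (log2 -0.73 ± 0.0951, adjusted p = 0.000662). The DKO arrays lay in the same range as DHet, at 7.46, 7.71 and 7.56 with 1429830_a_at and at 7.90, 8.02 and 7.91 with 1418710_at. The call of 1418710_at was lost when the 6 arrays were fitted alone (adjusted p = 0.121).

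The other 3 genes that fell did so by smaller amounts. Hsph1, a heat shock protein of the HSP110 family, was at 7.54, 7.65 and 7.60 log2 in WT and at 7.07, 6.996 and 6.62 in DHet (log2 -0.70 ± 0.104, limma, adjusted p = 0.00243), and its second probe set, 1423566_a_at, was lower by 0.59 (adjusted p = 0.148). Cdk5rap1, which modifies mitochondrial transfer RNAs, was at 6.66, 6.50 and 6.72 in WT and at 5.87, 5.81 and 5.73 in DHet (log2 -0.82 ± 0.148, adjusted p = 0.0278). Ggps1, the geranylgeranyl diphosphate synthase of isoprenoid metabolism, was at 7.29, 7.30 and 7.30 in WT and at 6.78, 6.92 and 6.64 in DHet (log2 -0.52 ± 0.0908, adjusted p = 0.0201). Its other 3 probe sets differed by -0.12, -0.21 and -0.32 and were not called. Hsph1 lost its call when the 9 arrays titled 8 day or the 6 arrays were fitted alone (adjusted p = 0.0841 and 0.223), as Ggps1 did. Cdk5rap1 lost its call without any one of DHet replicates 1, 2 and 3 or WT replicates 1 and 3 (adjusted p up to 0.176), and with quantile normalization over all arrays (adjusted p = 0.147). Ggps1 lost its call without any one of DHet replicates 1 and 3 or WT replicates 1, 2 and 3 (adjusted p up to 0.197), and with quantile normalization (adjusted p = 0.0688).

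Hsph1 was the only called member of the heat shock and metallothionein list, of which 12 were measured. The mitochondrial chaperone Hspd1 differed by -0.21 log2 (adjusted p = 0.718) and the constitutive Hspa8 by -0.16 (adjusted p = 0.822), both with overlapping arrays. The sequence around the start of Hsph1 is shown because heat shock factor is its known regulator. It is RefSeq's promoter window of 300 bases (GRCm38.p6, chr5:149636287-149636586, minus strand), printed 5′ to 3′ along the gene. Capitals mark matches to either palindrome of inverted heat shock units, GAANNTTC or TTCNNGAA, each of which reads the same on both strands.
Hsph1: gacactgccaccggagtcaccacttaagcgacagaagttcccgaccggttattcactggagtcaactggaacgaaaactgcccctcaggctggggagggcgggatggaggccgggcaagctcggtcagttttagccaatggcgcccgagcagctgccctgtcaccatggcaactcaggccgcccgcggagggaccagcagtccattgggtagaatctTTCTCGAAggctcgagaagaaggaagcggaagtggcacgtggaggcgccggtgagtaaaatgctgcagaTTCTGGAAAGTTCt
The window holds 3 matches, of which 2 overlap at its 3′ end. Of 32851 promoter windows of this length 15.1% hold at least 1 match and 0.256% hold at least as many as Hsph1. Hspd1 and Hspe1 of the same list hold 3 matches too. Of the 9 genes of the list that have a window, 6 hold a match. Here each gene counts by its window with the most matches, while the shares above are over windows. The matches were not tested as binding sites.

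Atg7, an enzyme that activates ubiquitin-like proteins in autophagy, was the only gene named singly by a probe set called higher. Probe set 1428610_at was at 6.10, 6.001 and 6.17 log2 in WT and at 6.58, 6.43 and 6.61 in DHet (log2 0.45 ± 0.0714, limma, adjusted p = 0.00653). Its other 2 probe sets, with higher levels, pointed the other way, by -0.12 and -0.17, and were not called. With 1428612_at every DHet array, at 6.73, 6.71 and 6.73, was below every WT array, at 6.88, 6.84 and 6.94. A rise of the gene therefore rests on 1428610_at alone. The call of 1428610_at was lost without DHet replicate 1 or 3 (adjusted p = 0.0658 and 0.0827). It was also lost when the 9 arrays titled 8 day or the 6 arrays were fitted alone (adjusted p = 0.174 and 0.297).

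The larger rises were in probe sets that the annotation assigns to several genes each, so they are given by their identifiers. Together 4 such probe sets list 9 genes, and all 9 lie on chromosome 14 in a run of 17 neighbouring RefSeq genes. Probe sets 1452590_a_at and 1458659_at list the same genes, Plac9a, Plac9b and Gm9780. Tmem254a, Tmem254b and Tmem254c are listed for 1428738_a_at, and Duxbl1, Duxbl2 and Duxbl3 for 1445710_x_at. None of these probe sets tells its listed genes apart, so the 9 genes were not measured singly by them. Probe set 1428738_a_at was at 8.26, 8.26 and 8.38 log2 in WT and at 9.88, 9.91 and 9.90 in DHet, a 3.02-fold difference (log2 1.59 ± 0.214, limma, adjusted p = 0.000853). Probe set 1452590_a_at was at 9.46, 9.39 and 9.31 in WT and at 10.87, 10.93 and 10.92 in DHet (log2 1.52 ± 0.198, adjusted p = 0.000662). The spread among the 3 DHet arrays of these 2 was below 0.1 log2. Probe sets 1458659_at and 1445710_x_at rose by 1.54 and 1.27 log2 (adjusted p = 0.00903 and 0.00113).

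DKO arrays were split on the called probe sets of the run. Replicate 1 of DKO, at 8.78 for 1428738_a_at and 9.70 for 1452590_a_at, was near WT. Replicates 2 and 3, at 9.75 and 9.82 and at 10.62 and 10.59, were near DHet. The run holds 9 kept probe sets with a gene, including the 4 called ones whose genes define it, so those 4 support nothing about it. Of the other 5, none was called, 4 were higher in DHet without overlap and 1 was lower. Of all 27022 kept probe sets, 1397 were higher and 1967 lower without overlap. One of the 4, 1429099_at, lists the same genes as 1445710_x_at (log2 0.59, limma, adjusted p = 0.148). Another, 1457717_at, names Tmem254a, which the called 1428738_a_at also lists. Probe sets 1418468_at and 1455999_at were higher by 0.21 and 0.12 log2 (adjusted p = 0.718 and 0.837). The probe set that names Tmem254a alone, 1457717_at, was at 4.66, 4.46 and 4.04 in WT and at 4.998, 5.24 and 4.96 in DHet (log2 0.68 ± 0.165, adjusted p = 0.183). It did not show the split, as DKO replicate 1, at 4.96, lay at the level of DHet like replicates 2 and 3, at 5.10 and 5.11. Its levels on all 9 arrays titled 8 day lay below the array medians, 5.28 to 5.32. A probe set this low cannot decide about the split. Probe set 1445996_at, without a gene name, rose by 1.19 log2 (adjusted p = 0.0126) and showed the same split in DKO, at 5.76, 6.38 and 6.32 against 5.42, 5.53 and 5.66 in WT. Calls were lost for 1458659_at without DHet replicate 1 or WT replicate 3 (adjusted p = 0.0736 and 0.0662) or when the 9 arrays titled 8 day were fitted alone (adjusted p = 0.0558). They were lost for 1445996_at without DHet replicate 2 or 3 or WT replicate 1 (adjusted p up to 0.11).

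**Figure D2:**
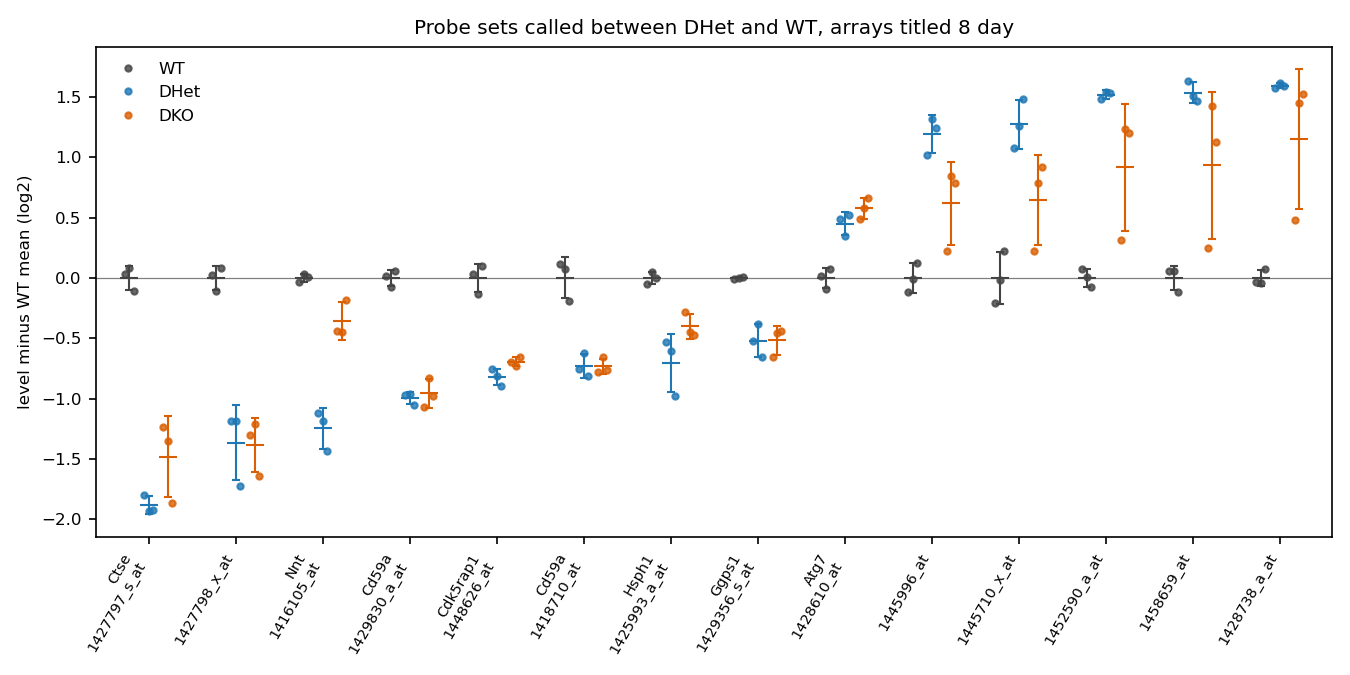
Level of each of the 14 called probe sets on each array titled 8 day minus the WT mean of that probe set (log2), with points for arrays, dashes for group means and bars for SD (n = 3). DHet and WT arrays do not overlap for any of the 14, and DKO replicate arrays spread widely on the probe sets of the chromosome 14 run.

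Whether these differences were shared by the other sets was tested as the difference between sets, which share no arrays. A probe set passed this test for 0.729% of the table against the set titled 1 day and for 0.0481% against the 28-day set. The first share stands for 197 probe sets, and 133 were left without WT replicate 2, 122 without DHet replicate 2, and between 18 and 36 without any one of the other 4 arrays. The second stands for 13, which became 23 without DHet replicate 2 and 7 without WT replicate 1. Of the 14 called probe sets 10 passed against the set titled 1 day, 9 against the 28-day set and 7 against both. The 14 were chosen by their difference in the set titled 8 day, which enters each of these tests. These counts are therefore partly given by the choice. Ctse differed by -0.12 ± 0.15 log2 in the set titled 1 day and by -0.15 ± 0.16 in the 28-day set. Nnt went the other way in the set titled 1 day, at 8.14, 8.10 and 8.16 in WT and at 9.10, 8.42 and 8.80 in DHet (0.64 log2 higher, limma, adjusted p = 0.018), and was 0.20 higher in the 28-day set (adjusted p = 0.996). Cdk5rap1 was 0.73 log2 higher in the set titled 1 day (adjusted p = 0.00833) and 0.41 higher in the 28-day set (adjusted p = 0.828). Cd59a 1429830_a_at was 0.34 higher in the set titled 1 day (adjusted p = 0.0497). The probe sets 1428738_a_at and 1452590_a_at were 0.53 and 0.45 log2 lower in DHet of the 28-day set (adjusted p = 0.871 and 0.907). None of the 14 was called in the 28-day set, whose WT holds 2 arrays.

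**Figure D3:**
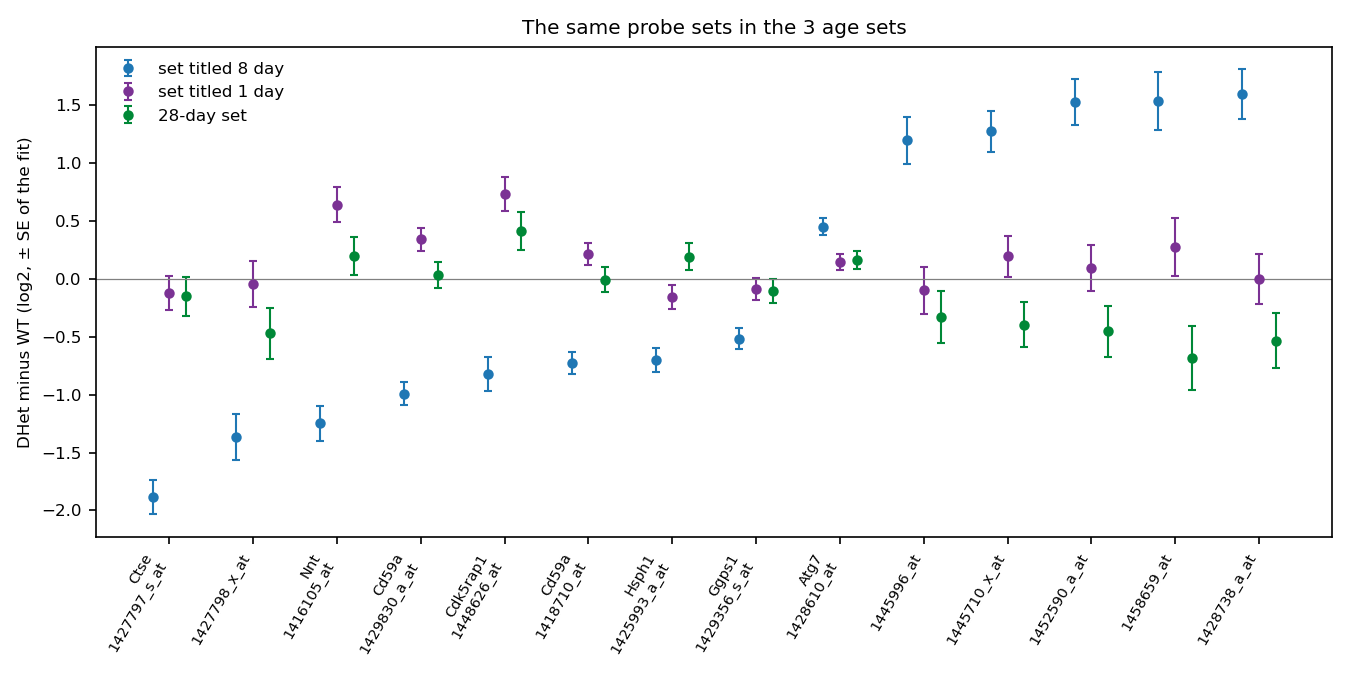
DHet minus WT (log2, bars are SE of the fit) of the 14 called probe sets in the set titled 8 day, the set titled 1 day and the 28-day set. Differences are 0.45 to 1.89 log2 in size in the set titled 8 day, by which the probe sets were chosen. Those of the set titled 1 day range from -0.16 to 0.73, and those of the 28-day set from -0.68 to 0.41.

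The levels of these probe sets were also set side by side over all 9 groups. Levels are given minus the median of their array, because the deposited values of the 3 sets have different distributions, and with no test. The WT of the set titled 8 day was the highest of the 9 groups for 7 of the 14 probe sets, the lowest for 5 and in between for 2. Ctse 1427797_s_at was 2.25 log2 above the array median in that WT group and between 0.36 and 0.76 in the other 8 groups. Cd59a 1429830_a_at was 3.23 above in that group and between 0.14 and 2.27 in the others. For 1445996_at that WT group was 0.23 above, and the others were between 0.66 and 1.42. The 14 were chosen by their distance from this WT group, so its place at an end is partly given by the choice.

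Other large differences did not pass the test and are given as values. Cyp1a1, a cytochrome P450 induced through the aryl hydrocarbon receptor, had the largest difference of all, at 4.30, 4.65 and 4.73 log2 in WT and at 6.15, 6.32 and 7.68 in DHet (log2 2.16 ± 0.73, limma, adjusted p = 0.454), while DKO was at 4.97, 4.92 and 5.01. The next largest were in genes of several kinds, chosen by the size of their difference. The acidic chitinase Chia1 was at 7.90, 7.56 and 7.43 in WT and at 8.92, 9.13 and 8.85 in DHet (log2 1.33, adjusted p = 0.0518, the value next to the threshold). Retnla, a resistin-like secreted protein, was at 10.90, 11.15 and 10.60 in WT and at 12.07, 12.25 and 12.18 in DHet (log2 1.28, adjusted p = 0.351). The chitinase-like genes Chil3 and Chil4 were 1.35 and 0.90 log2 higher (adjusted p = 0.351 and 0.311). Transcript 8430419K02Rik was at 4.57, 4.07 and 4.14 in WT and at 5.01, 5.18 and 6.65 in DHet (log2 1.35, adjusted p = 0.135). In DKO, Retnla ranged from 10.27 to 12.52 and Chil3 from 7.62 to 10.53 between pools.

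Mid1, a ubiquitin ligase gene at the edge of the pseudoautosomal region of the mouse X chromosome, was at 5.34, 5.11 and 4.96 log2 in WT and at 6.94, 6.84 and 6.17 in DHet (log2 1.51, limma, adjusted p = 0.0962). It was 1.09 log2 lower in DHet of the set titled 1 day. The cold-inducible RNA-binding protein Cirbp was at 8.52, 8.54 and 8.69 in WT and at 9.19, 9.19 and 9.62 in DHet (log2 0.75, adjusted p = 0.0962). The anion exchanger gene Slc26a4, the splicing factor gene Rbm39 and Vapb, which encodes a tether of the endoplasmic reticulum, were 0.94, 0.78 and 0.88 log2 higher, with adjusted p of 0.351, 0.148 and 0.168.

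On the lower side, the pseudogene Pisd-ps3 was at 6.07, 5.31 and 5.43 log2 in WT and at 4.67, 4.42 and 4.43 in DHet (log2 -1.10, limma, adjusted p = 0.091). Pde4b, a cyclic AMP phosphodiesterase, was at 8.54, 8.32 and 8.49 in WT and at 7.51, 7.38 and 7.71 in DHet (log2 -0.92, adjusted p = 0.31). Id4, an inhibitor of helix-loop-helix transcription factors, was at 8.14, 8.15 and 8.21 in WT and at 7.33, 7.49 and 7.45 in DHet (log2 -0.75, adjusted p = 0.117). The interferon-induced antiviral gene Rsad2, the collagen prolyl hydroxylase gene P4ha1, Sbno1 and Tent5c differed by -0.78, -0.72, -0.70 and -0.64, with adjusted p of 0.148, 0.351, 0.439 and 0.294. Id4 starts within 20 Mb of Fgfr4. Of 389 kept probe sets with a gene starting within 20 Mb of Fgfr4 none was called and 7.71% had an unadjusted p under 0.05. Around Fgfr3 none of 361 was called and 9.14% had one, beside 7.49% of all. Abhd1, a neighbour of Fgfr3, had the smallest p of these neighbours and was 0.47 log2 higher in DHet (limma, adjusted p = 0.1005). It was 0.39 and 0.76 higher in the set titled 1 day and the 28-day set (adjusted p = 0.0274 and 0.0126). In DKO of the set titled 8 day Abhd1 was 0.95 above the same WT (adjusted p = 1.31e-05). The part of its position in these differences was not tested.

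**Figure D4:**
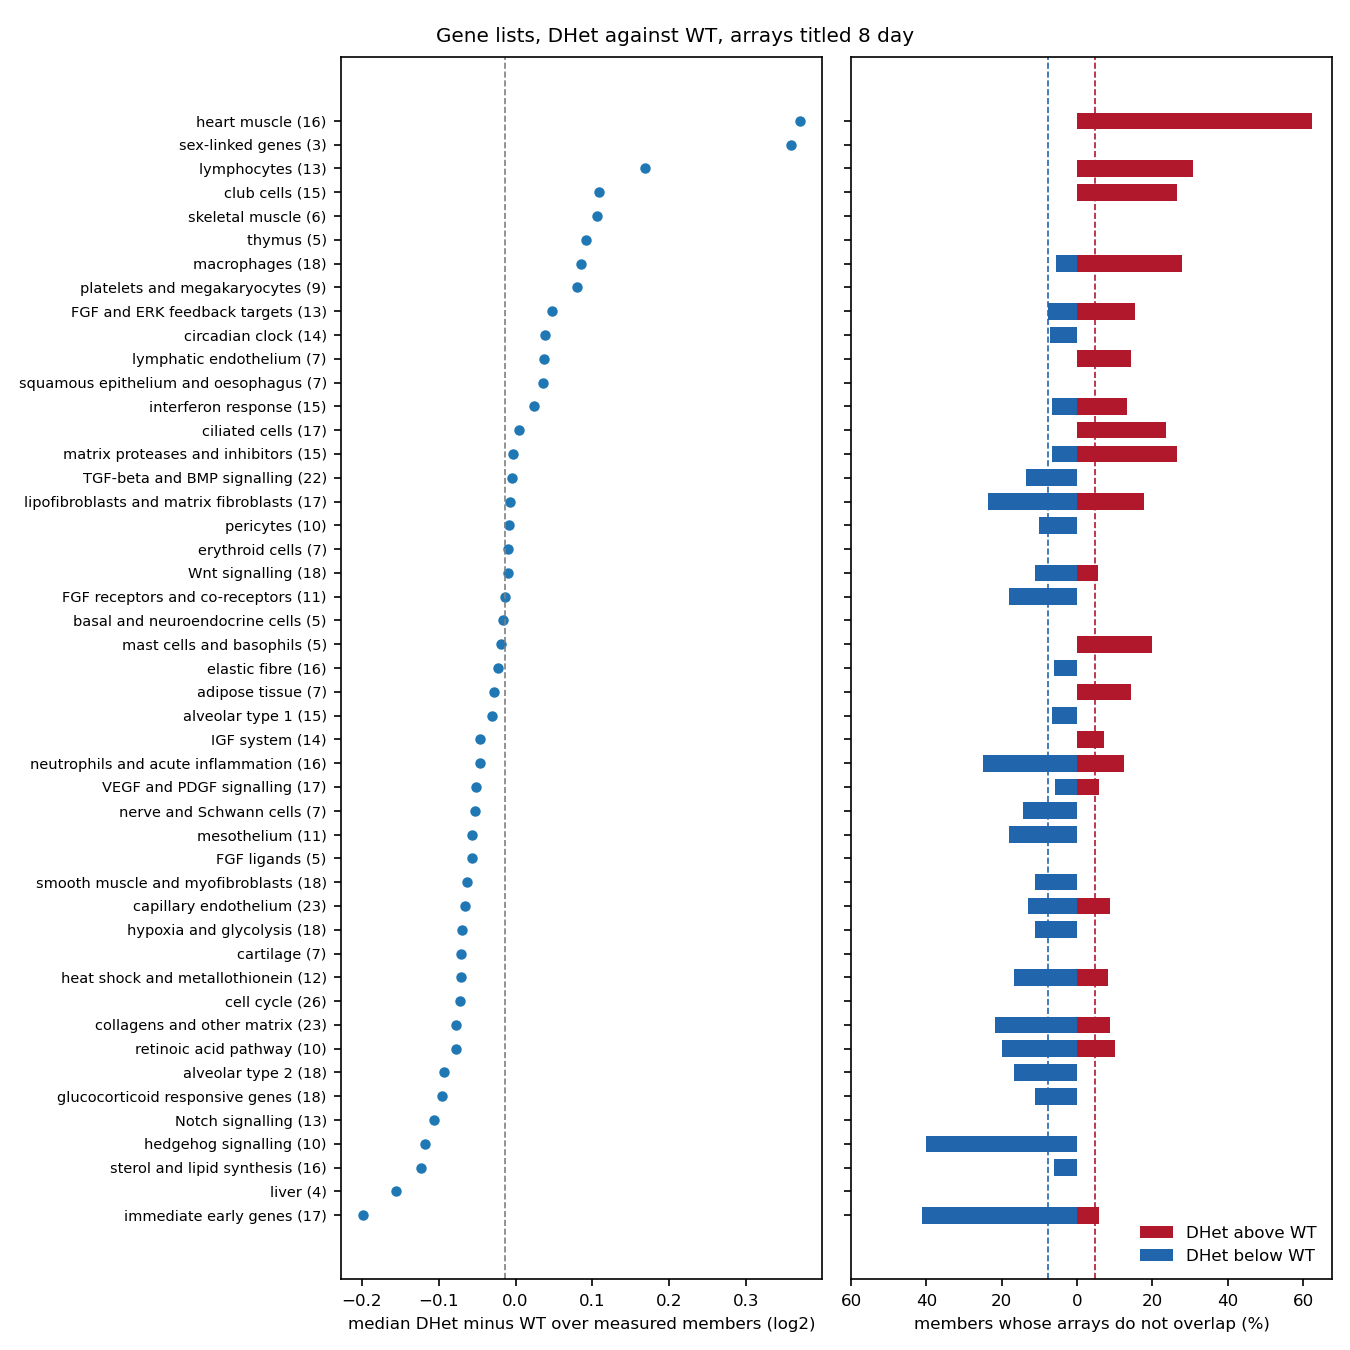
For each gene list, with its number of measured members in brackets, the median DHet minus WT (log2, left) and the share of members whose DHet and WT arrays do not overlap (right, red for DHet above WT and blue for below). Dashed lines give the same over all 13079 genes. Heart muscle genes and immediate early genes lie at the ends.

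Gene lists for pathways, lung cell types and neighbouring tissues were described by the members whose arrays did not overlap, beside all 13079 genes, of which 4.74% were higher and 7.65% lower in DHet and whose median difference was -0.01 log2. Heart muscle genes had the largest median. These are expressed in heart and, in mice, in the cardiac muscle around the pulmonary veins. Of 20 members 16 were measured, 10 were higher in DHet without overlap, none was lower, and the median was 0.37 log2, but none passed the test. Myh6, the alpha myosin heavy chain, was at 6.57, 7.59 and 7.29 log2 in WT and at 8.23, 8.01 and 8.01 in DHet (log2 0.93 ± 0.25, limma, adjusted p = 0.268). Csrp3, a muscle LIM protein, was at 5.83, 6.41 and 6.36 in WT and at 7.02, 6.87 and 6.97 in DHet (log2 0.75, adjusted p = 0.148). The troponins Tnnt2 and Tnni3 were 0.68 and 0.38 higher (adjusted p = 0.268 and 0.544), and the atrial light chain Myl7 was 0.69 higher (adjusted p = 0.394). Tnnt2 was 0.84 higher with another probe set, 1418726_a_at, which did not pass either (adjusted p = 0.212). The ventricular heavy chain Myh7 differed by 0.00 and the cardiac transcription factor Nkx2-5 by 0.05.

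The mean level over the 16 heart muscle genes was 6.35, 6.74 and 6.65 log2 in WT, 7.03, 6.97 and 6.99 in DHet and 7.54, 7.64 and 7.41 in DKO. WT replicate 1 was the lowest, and without it the median was 0.29 and the same number of members, 10, lay apart. The median over these genes was 1.03 log2 between DKO and the same WT, 0.09 between DHet and WT of the set titled 1 day and 0.24 in the 28-day set. Of the skeletal muscle list 6 members were measured and none lay apart. The part that tissue taken along with the lung plays in this difference was not tested.

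**Figure D5:**
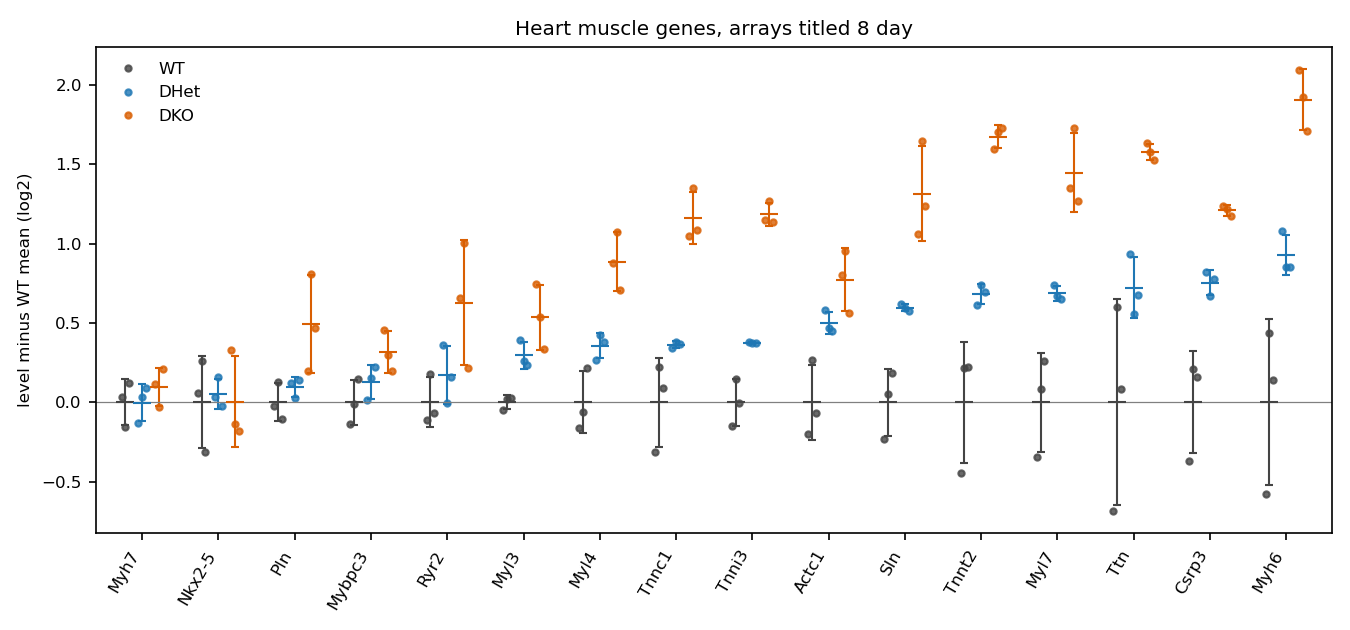
Level of each of the 16 measured heart muscle genes on each array titled 8 day minus its WT mean (log2), with points for arrays, dashes for group means and bars for SD (n = 3). DHet arrays lie above all WT arrays for 10 genes, and DKO lies higher still for most of them.

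Immediate early genes, which are induced within minutes by growth factors and stress, lay at the other end. Of 17 measured members 7 were lower in DHet without overlap, 1 was higher, and the median was -0.20 log2. None passed the test. Klf2, a transcription factor of flow-exposed endothelium, was at 10.07, 10.03 and 10.05 log2 in WT and at 9.55, 9.58 and 9.66 in DHet (log2 -0.45 ± 0.10, limma, adjusted p = 0.138). The ERK and p38 phosphatase gene Dusp1 was at 11.43, 11.17 and 11.26 in WT and at 10.77, 10.31 and 10.98 in DHet (log2 -0.60, adjusted p = 0.316). Ier2 and the nuclear receptor Nr4a1 differed by -0.31 and -0.94 (adjusted p = 0.456 and 0.595). Egr1 and Fos differed by -0.66 and -0.36 with overlapping arrays, and Ier3 was 0.35 higher. In DKO the median of the list was -0.02 against the same WT. Without WT replicate 2 or without DHet replicate 3, 11 of the 17 were lower without overlap.

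Hedgehog signalling genes had 4 of 10 measured members lower without overlap and none higher, with a median of -0.12 log2. Hhip, the hedgehog decoy receptor, was at 10.25, 9.66 and 9.96 log2 in WT and at 9.63, 9.31 and 9.13 in DHet (log2 -0.60, limma, adjusted p = 0.351). The ligand Shh, the target Gli1 and the receptor Ptch1 differed by -0.28, -0.24 and -0.15 (adjusted p = 0.842, 0.888 and 0.951).

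Among epithelial lists, alveolar type 2 genes had 3 of 18 lower without overlap, a median of -0.09 log2, and none called. Nkx2-1, the transcription factor of lung epithelium, was at 6.35, 5.66 and 6.13 log2 in WT and at 5.28, 5.46 and 5.61 in DHet (log2 -0.60, limma, adjusted p = 0.212), and the lipid transporter of surfactant Abca3 differed by -0.22 (adjusted p = 0.479). Of ciliated cell genes 4 of 17 were higher, led by the dynein light chain gene Dynlrb2 (0.28, adjusted p = 0.351), with a median of 0.00. Of club cell genes 4 of 15 were higher, among them Aldh1a1 and Gsta3 (0.35 and 0.38, adjusted p = 0.837 and 0.838). None of the 26 measured cell cycle genes lay apart in either direction. By the probe set of smallest p, 3 were lower, beside 1424 of all 13079 genes.

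Of lymphocyte genes 4 of 13 were higher without overlap, with a median of 0.17 log2. The immunoglobulin heavy chain gene Ighm was at 8.23, 8.36 and 8.10 log2 in WT and at 8.73, 8.74 and 8.79 in DHet (log2 0.52, limma, adjusted p = 0.151), the B cell gene Cd79b was 0.35 higher and the T cell receptor subunit Cd3d 0.31 higher (adjusted p = 0.618 and 0.539). None of the 5 measured thymus genes lay apart. Macrophage genes had 5 of 18 higher and 1 lower, Chil3 having the smallest p, and neutrophil genes had 4 of 16 lower and 2 higher. The neutrophil genes S100a9 and S100a8 were lower by 0.48 and 0.38, at 9.92, 9.93 and 9.92 in WT and 9.44, 9.46 and 9.42 in DHet for S100a9 (adjusted p = 0.881). Its SE, 0.408, is far above this spread because the fit shares 1 spread over the 9 groups.

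Of the matrix genes that the loss of both receptors is known for, Eln, which encodes elastin, was at 12.73, 12.98 and 12.91 log2 in WT and at 12.76, 12.85 and 12.70 in DHet with probe set 1420855_at (log2 -0.10 ± 0.127, limma, adjusted p = 0.94). A second Eln probe set differed by -0.18 (adjusted p = 0.916). The growth factor gene Igf1 differed by between -0.24 and -0.08 over 4 probe sets, none called. Of 16 measured elastic fibre genes 1 lay apart, Emilin1, lower by 0.21 (adjusted p = 0.73). By the probe set of smallest p, 3 elastic fibre genes were lower without overlap, beside 885 higher and 1424 lower of all 13079 genes. Of 23 collagens and other matrix genes 5 were lower and 2 higher, or 6 and 5 by the probe set of smallest p. The small proteoglycan genes Dcn and Lum were the higher ones, by 0.49 and 0.35 (adjusted p = 0.421 and 0.479), and Col1a2 was among the lower ones, by 0.21 (adjusted p = 0.776). The fetal growth factor-like gene Dlk1 was at 7.21, 7.12 and 6.91 in WT and at 7.56, 7.94 and 7.84 in DHet (log2 0.70, adjusted p = 0.371). Tcf21, a transcription factor of lung mesenchyme, was lower by 0.40 (adjusted p = 0.524).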

How the data were processed

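Lung RNA of 26 pools was measured on Affymetrix 3′ expression arrays with 45101 probe sets. The authors deposited log2 probe set levels, while the sources used here do not state how these were summarised and normalized. The 64 control probe sets were left out. Genes were named from the platform annotation, with 34741 of 34945 single-gene symbols updated through Entrez identifiers to RefSeq (GRCm38.p6). Probe sets in the upper 60% by mean level over all arrays (at least 5.38) were kept, 27022 in all, for 13079 genes. All arrays were fitted with 1 mean per group in limma 3.58.1 (R 4.3.3; lmFit, eBayes, 17 residual degrees of freedom), with p adjusted by Benjamini and Hochberg over all kept probe sets and called under 0.05. Errors of differences are SE of the fit. P-values measure the spread between pools, and the number of arrays limits the precision. The fit was tested on simulated data.

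Members and gene lists (47 lists, 724 members, 48 of them not on the array) were chosen with earlier results of these data known. In lists each gene stands by whichever of its probe sets had the highest mean. Named genes are all kept probe sets of the 5 FGF receptor genes, Eln and Igf1, every called gene, then the largest differences without overlap at an unadjusted p under 0.01 up to 15 per direction, and the 4 smallest p of each list. Members named outside this rule were chosen after their values were seen. Alternatives varied the filter, normalization, arrays in the fit, weights and single arrays. Same-numbered arrays did not deviate together (r of 0.03, 0.08 and -0.30), so no pairing was used.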

Additional observations from a re-analysis of the deposited data

Results flagged for a closer look

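The DHet minus WT difference of several called probe sets differed between sets in a test of that difference itself (limma, all arrays in 1 fit). Values are the difference in the set titled 8 day minus that in the other set, on the log2 scale. Against the set titled 1 day it was -1.76 for Ctse (1427797_s_at, adjusted p = 0.000225), -1.89 for Nnt (adjusted p = 0.000134) and -1.55 for Cdk5rap1 (adjusted p = 0.00143). For Cd59a it was -1.33 with 1429830_a_at (adjusted p = 8.89e-05) and -0.95 with 1418710_at (adjusted p = 0.00245). The probe sets of the chromosome 14 run gave 1.43 for 1452590_a_at, 1.60 for 1428738_a_at and 1.08 for 1445710_x_at (adjusted p = 0.0303, 0.0234 and 0.0459). The unnamed probe sets gave -1.32 for 1427798_x_at and 1.29 for 1445996_at (adjusted p = 0.0393 and 0.0436).

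Against the 28-day set the difference was -1.73 for Ctse (adjusted p = 0.00237), -1.44 for Nnt (adjusted p = 0.00852) and -1.23 for Cdk5rap1 (adjusted p = 0.0289). It was -1.02 for Cd59a 1429830_a_at (adjusted p = 0.00627) and -0.89 for Hsph1 (adjusted p = 0.0243). The chromosome 14 probe sets gave 1.97 for 1452590_a_at, 2.13 for 1428738_a_at, 1.67 for 1445710_x_at and 2.22 for 1458659_at (adjusted p = 0.00627, 0.00627, 0.00874 and 0.0204). These probe sets were chosen by their difference in the set titled 8 day, which enters each of these tests. Groups of 3 arrays were not tested for single outlying arrays.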

How the results depend on the processing

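The count of 14 called probe sets lay between 12 and 20 over 9 changes of filter, normalization, fit, weights or centring, and between 11 and 23 with 1 array left out. Those called higher were 6, or 10 with array weights and 4 to 12 with 1 array left out. Those called lower were 8, or 6 to 12 with 1 array left out. Of 15 alternatives 6 kept all 14 calls, and the fewest kept was 10. Ctse, Nnt, Cd59a 1429830_a_at, 1427798_x_at, 1428738_a_at, 1445710_x_at and 1452590_a_at were called in all 12 alternatives run for single genes. The replicate block called 18, with 7 higher and 11 lower, and kept all 14, and it called 32 in the comparison with the set titled 1 day and 10 in that with the 28-day set. That comparison with the set titled 1 day called 197, but 81 with no filter on level, 100 with quantile normalization, 728 with array weights and 18 to 133 with 1 array left out. That with the 28-day set called 13, or 20 with array weights and 7 to 23 with 1 array left out. The cause of these shifts was not tested. Fitted on the 6 arrays alone, 15 were called, and 10 of the 14 were kept, Cd59a 1418710_at, Hsph1, Atg7 and Ggps1 being lost (adjusted p up to 0.297). Among named probe sets that did not pass in the main fit, 13 results over 10 genes passed in an alternative. Signs that turned were of uncalled values near 0. Fgfrl1 1447878_s_at was 0.0106 with quantile normalization, and -0.0795 to 0.0578 with 1 array left out, and Ctse 1418989_at was -0.0137 with array weights, and -0.14 to 0.0866 with 1 array left out. With 1 array left out Fgfr2 1443211_at was -0.0204 to 0.12, Fgfr2 1433489_s_at -0.10 to 0.0318, Fgfr4 1427777_x_at -0.0309 to 0.0449, Fgfr4 1427846_x_at -0.00849 to 0.0620, Igf1 1419519_at -0.16 to 0.0396 and Fgfr1 1425911_a_at -0.13 to 0.0365. With each gene taken by its probe set of smallest p, 885 of all genes were higher without overlap instead of 620 and 1424 lower instead of 1000, while heart muscle had 10 higher (median 0.44) and immediate early genes 7 lower (median -0.24). The medians of the heart muscle and immediate early genes lists with 1 array left out, an alternative chosen after seeing the data, were 0.29 to 0.46 and -0.29 to -0.20.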
